A study of Mus musculus with 2 samples.

Results

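Naive CD8 αβ T cells of the mouse spleen are described here as the cells that pass a gate on unique molecular identifiers (UMIs, 1 per captured transcript). Cells first had to show between 200 and 6000 genes, and mitochondrial UMIs had to stay under 10%. The gate then asked for at least 2 UMIs of Cd3d and Cd3e together and at least 1 UMI of Cd8b1, and for none of Cd4, Foxp3, Cd79a, Klrb1c, Trdc, Tcrg-C1, Tcrg-C2 and Tcrg-C4. At most 1 UMI of Ccl5, Nkg7 and Il2rb together was allowed, which is called the naive limit below. The gate held 210 of 25289 cells kept, 21 from the CKO library and 189 from the WT library. All of these genes are measured values that chose the cells, so their own levels are described and support nothing.

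The 2 spleen libraries come from immune cells of C57BL/6 mice, 1 with a conditional knockout of RPA1 (CKO) and 1 wild type (WT), read as 3′ tags on the 10x Chromium platform. RPA1 is the largest chain of replication protein A, a complex that coats single-stranded DNA in replication and repair. The Cre driver, the deleted exons, the age of the mice and whether animals were pooled are not given in the sources used here. The series asks about the role of RPA1 in T cells. With 1 library per genotype there is no replicate check, so no test was made and every difference below compares these 2 libraries.

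The CKO library held 12958 barcodes and 76910129 UMIs with a median of 4616 UMIs, and the WT library 13291 barcodes and 84240951 UMIs with a median of 5355 UMIs. After the filter 12610 CKO and 12679 WT cells remained. Barcode sequences shared by both libraries numbered 36, and 0 of them belonged to the gate. Gate cells had a median of 5503 UMIs and 1951 genes in the CKO library and 6431 UMIs and 2021 genes in the WT library. Their UMIs summed to 121412 in CKO and 1226558 in WT, so the CKO library sets the precision of each ratio. Intervals below are exact 95% intervals and cover counting error only.

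A naive CD8 T cell has left the thymus and has not yet met its antigen. It carries the CD8 coreceptor, a pair of an α chain (Cd8a) and a β chain (Cd8b1) that binds MHC class I beside the T cell receptor. It circulates through spleen and lymph nodes with the help of the chemokine receptor CCR7, and lives on interleukin 7 and weak self-recognition while the transcription factors LEF1 and TCF1 (Tcf7) keep it quiescent. Dapl1, a small protein of resting lymphocytes, is a common marker of naive CD8 T cells.

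Cd8a, the other chain of the coreceptor, was present in few CKO gate cells and in most WT gate cells. This gene, which the gate did not use, lies 35932 bases from Cd8b1 on mouse chromosome 6 (GRCm38, Cd8a 71373427 to 71379173 and Cd8b1 71322788 to 71337494, both on the plus strand). A Cd8a UMI was present in 4 of 21 CKO gate cells (19.0%, 5.45 to 41.9) and in 129 of 189 WT gate cells (68.3%, 61.1 to 74.8). Summed over the gate, Cd8a measured 49.4 UMIs per 1000000 UMIs of the gate cells (CPM; 18.1 to 108) in CKO and 386 CPM (352 to 423) in WT. B cells of the gate on Cd79a, which should lack the gene, held a Cd8a UMI in 0.165% of CKO and 0.688% of WT cells, at median depths of 4433 and 4658 UMIs. After each cell was thinned to 2000 UMIs, which left out 1 shallower gate cell per library, 0 of 20 CKO cells held Cd8a (upper limit of the interval 16.8%) against 89 of 188 WT cells (47.3%).

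Most CKO gate cells entered on the lowest Cd8b1 count that the gate accepts. Exactly 1 Cd8b1 UMI was found in 12 of 21 CKO cells (57.1%) and in 44 of 189 WT cells (23.3%). The other CKO cells held 2 (3 cells), 4, 5, 6, 8, 9 and 12 UMIs (1 cell each). In WT the counts ran up to 20 UMIs. Among cells with 1 Cd8b1 UMI, Cd8a was found in 0 of 12 CKO cells and 1 of 44 WT cells. Among cells with 2 or more, it was found in 4 of 9 CKO cells and 128 of 145 WT cells. Cells with 1 Cd8b1 UMI thus nearly always lacked Cd8a, in both libraries, and they made up more of the CKO gate.

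**Figure D1:**
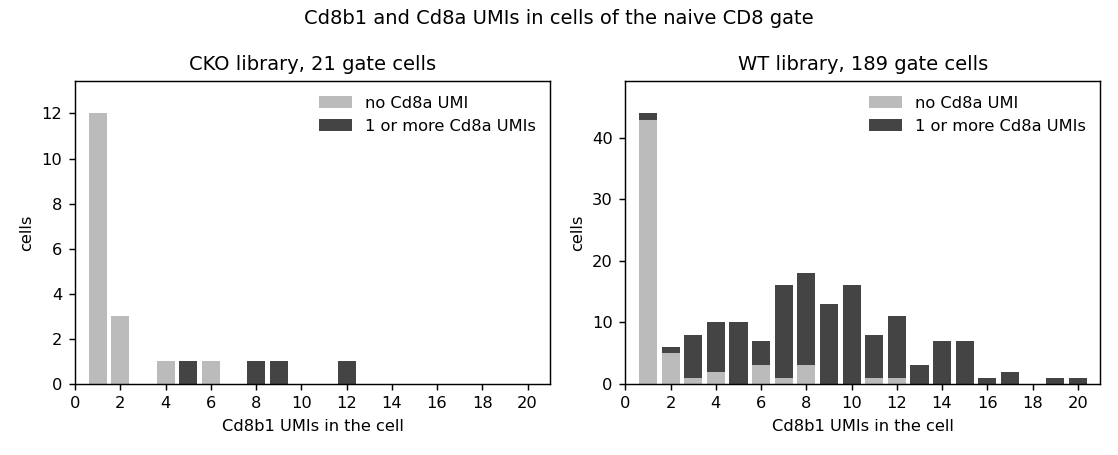
Number of gate cells (y axis) by their Cd8b1 UMIs (x axis), in the CKO library at left and the WT library at right. Dark parts of the bars are cells with at least 1 Cd8a UMI. Of the CKO cells, 12 of 21 stand at 1 Cd8b1 UMI and none of these 12 holds Cd8a, while the WT cells spread up to 20 UMIs.

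A Cd8b1 UMI was also seen in T cells that carry Cd4, the helper coreceptor. With the same exclusions, no naive limit and Cd8b1 left free, 51 of 307 Cd4-positive T cells of the CKO library (16.6%, 12.6 to 21.3) and 168 of 1284 of the WT library (13.1%, 11.3 to 15.1) held 1 or more Cd8b1 UMIs. A Cd8a UMI was present in 1 of 307 CKO and 48 of 1284 WT cells of that kind. B cells held a Cd8b1 UMI in 0.227% of CKO and 1.14% of WT cells, below the shares in Cd4-positive T cells. The B cell gate allowed no Cd3d or Cd3e UMI. Its cells had medians of 4433 and 4658 UMIs, against 5917 and 6571.5 UMIs in the Cd4-positive T cells. The B cell share is thus no upper bound on free RNA, and the source of these Cd8b1 UMIs was not tested. The CKO gate cells as a whole are called by the gate below, and results are given with and without the cells that lack Cd8a.

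Other genes outside the gate were set beside this check. Lef1 measured 642 CPM (508 to 802) in CKO and 752 CPM (704 to 802) in WT gate cells, against 15.6 and 14.4 CPM in B cells. Tcf7 stood at 560 and 512 CPM, and Ccr7 at 264 and 236 CPM. Dapl1 measured 231 CPM (153 to 333) in CKO, from 6 of 21 cells, and 456 CPM (419 to 495) in WT, from 105 of 189 cells. Trac, the constant region of the receptor's α chain, stood at 601 CPM in both. Genes of naive T cells were thus abundant in both libraries, while the genes that tell CD8 from CD4 were not alike.

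Markers of other cells were read by the lists written for each type. The 7 markers of memory or effector CD8 T cells summed to 41.2 CPM in CKO, in 5 of 21 cells with 2 markers present, and to 386 CPM in WT, in 110 of 189 cells with 5 present. In WT that sum was as high as the level of Cd8a itself. Of it Ly6c2 made up 8.24 CPM in CKO and 179 CPM in WT, Klrd1 32.9 and 148 CPM, and Eomes 0 and 54.6 CPM, while Cd44, which antigen-experienced T cells carry, had 0 and 3 UMIs and Gzmk and Gzmm were at 0 in both libraries. UMIs of Klrd1 lay in 19.0% of the CKO cells and 45.5% of the WT cells, and those of Ly6c2 in 4.76% and 27.5%. The 6 myeloid markers summed to 173 CPM in 15 of 21 CKO cells and 119 CPM in 95 of 189 WT cells, against 1134 and 1045 CPM in B cells. In CKO 4 of the 6 were present, among them Cst3 at 90.6 CPM, S100a9 at 49.4 CPM and S100a8 at 24.7 CPM, and Csf1r and Itgam were at 0. The 3 markers of regulatory T cells outside the gate summed to 41.2 CPM in CKO and 67.7 CPM in WT, where Ikzf2 was found in 14.8% of cells. The 2 plasmacytoid markers summed to 65.9 CPM in CKO and 151 CPM in WT, nearly all of it Bst2, and the 2 plasma cell markers to 16.5 and 15.5 CPM, with Jchain at 0 in CKO. NK markers outside the gate summed to 8.24 CPM in CKO, all from 1 UMI of Tyrobp, and 10.6 CPM in WT. Cd163l1 and Sox13 of γδ T cells were at 0 in CKO and had 1 UMI each in WT, and Zbtb16 of NKT cells was at 0 in both libraries. The part of these markers in the results below was not tested. The B cell markers outside the gate summed to 387 CPM in CKO and 504 CPM in WT gate cells, against 23183 and 26858 CPM in B cells themselves. Ighm, the heavy chain of IgM, was the 1 measured gene of a longer B cell list and stood at a CKO over WT ratio of 0.653. The 2 CD4 T cell markers outside the gate, Cd40lg and Zbtb7b, summed to 98.8 CPM in CKO and 29.4 CPM in WT.

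Zbtb7b encodes ThPOK, the transcription factor that commits thymocytes to the CD4 lineage. It had 9 UMIs in 6 of 21 CKO cells and 24 UMIs in 15 of 189 WT cells, or 74.1 and 19.6 CPM. All 9 CKO UMIs lay in cells without Cd8a. In WT, cells without Cd8a gave 57.9 CPM and cells with Cd8a 4.54 CPM, and naive CD4 cells 51.8 CPM. Cd40lg, the CD40 ligand of helper T cells, behaved alike: 31.5 CPM in CKO cells without Cd8a, 31.8 CPM in WT cells without it, 1.14 CPM in WT cells with it and 50.4 CPM in WT naive CD4 cells. WT cells of the gate without Cd8a therefore carried more of both CD4 lineage genes than WT cells with it. The 4 CKO cells with Cd8a had 0 UMIs of both genes.

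The share of spleen cells in the gate was lower in the CKO library. It was 0.167% in CKO (0.103 to 0.254) and 1.49% in WT (1.29 to 1.72), 8.95-fold lower in CKO at a ratio of 0.112 (0.0676 to 0.176). Since B cells made up 76.7% of CKO and 56.2% of WT cells, the gate was also counted over cells without CD3 UMIs, where the ratio was 0.0791, and over all T cells of the CD3 gate, where it was 2.90% against 5.59%, a ratio of 0.519 (0.314 to 0.816). Naive CD4 gate cells, defined alike but with a Cd4 UMI and none of Cd8a or Cd8b1, stood at 1.90% of CKO and 8.04% of WT cells, a ratio of 0.236 (0.204 to 0.271). CD8 gate cells over the naive limit, called memory-like CD8 cells below, stood at 0.389% and 7.32%, a ratio of 0.0531 (0.0390 to 0.0708).

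Counted by Cd8a, the difference was larger. Gate cells with a Cd8a UMI numbered 4 in CKO and 129 in WT, or 0.0317% and 1.02% of cells, 32.1-fold lower in CKO at a ratio of 0.0312 (0.00837 to 0.0818). Gate cells without a Cd8a UMI numbered 17 in CKO and 60 in WT, a ratio of 0.285 (0.156 to 0.495). Cells with Cd8a had a median of 6614 UMIs in CKO and 6734 UMIs in WT, and cells without it 5419 and 5698.5 UMIs. The part of depth in the detection of Cd8a was not tested. The ratio of the cells without Cd8a lay near that of the naive CD4 cells, with intervals that overlap. Doublets marked by Scrublet took 0 of the 21 CKO and 4 of the 189 WT gate cells.

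The naive limit divided the CD8 cells mainly by Nkg7, a granule membrane protein of killer cells. Of 70 CKO and 1117 WT cells that met every other condition, 21 (30.0%, 19.6 to 42.1) in CKO and 189 (16.9%, 14.8 to 19.3) in WT met the limit. Of the cells beyond it, 30 of 49 in CKO (61.2%) and 617 of 928 in WT (66.5%) exceeded it by Nkg7 alone. Ccl5 alone accounted for 2 of 49 and 9 of 928 cells. Just inside the limit, at 1 UMI, lay 5 CKO and 89 WT cells, and just outside, at 2 UMIs, lay 4 CKO and 110 WT cells. A Cd8a UMI was present in 2 of the 5 and 82 of the 89 cells just inside, and in 3 of the 4 and 100 of the 110 cells just outside.

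Genes outside the rule were read across this border in cells with 0, 1, 2 to 3, 4 to 7, 8 to 15 and 16 or more UMIs of the 3 genes. These classes held 16, 5, 17, 14, 3 and 15 cells in CKO and 100, 89, 211, 337, 217 and 163 cells in WT. In that order Lef1 measured 574, 860, 525, 505, 458 and 139 CPM in CKO and 787, 716, 752, 689, 584 and 345 CPM in WT. The lowest Lef1 level was that at 16 or more UMIs in both libraries, far beyond the naive limit. Dapl1 measured 227, 241, 61.3, 353, 294 and 117 CPM in CKO and 430, 481, 613, 635, 579 and 265 CPM in WT. Cd44 measured 0, 0, 17.5, 0, 32.7 and 124 CPM in CKO and 3.26, 1.63, 9.19, 8.72, 21.6 and 49.9 CPM in WT, highest at 16 or more UMIs in both. Cd8a measured 21.7, 138, 674, 781, 523 and 446 CPM in CKO and 297, 476, 514, 500, 489 and 424 CPM in WT. Cells with 0 UMIs of the 3 genes thus had the least Cd8a in both libraries, and most clearly so in CKO, where 14 of the 16 held none. Among cells with UMIs of both Cd8a and Cd8b1, the naive limit was met by 4 of 52 CKO cells (7.69%) and 129 of 1010 WT cells (12.8%).

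**Figure D2:**
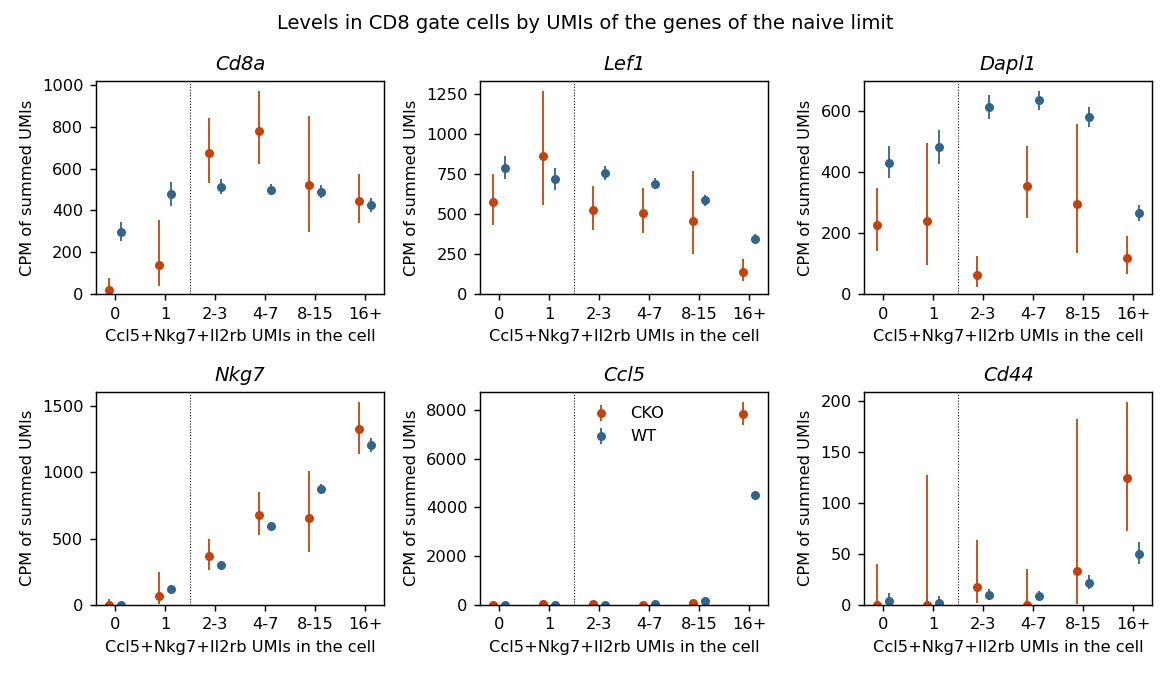
Summed level (CPM, y axis) of 6 genes in CD8 gate cells grouped by their UMIs of Ccl5, Nkg7 and Il2rb together (x axis), CKO in orange and WT in blue, with exact Poisson 95% intervals and a dotted line at the naive limit. Cd8a is 21.7 CPM in CKO and 297 CPM in WT at 0 UMIs, and Lef1 is lowest at 16 or more UMIs, with 139 CPM in CKO and 345 CPM in WT.

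A wider gate was added after these values had been seen. It required a Cd8a UMI and did not count Nkg7 in the naive limit, with all else as before. It held 34 CKO and 717 WT cells, 0.270% (0.187 to 0.377) and 5.66% (5.26 to 6.07) of cells, a ratio of 0.0477 (0.0328 to 0.0673). Cd44 stood at 8.19 CPM (2 UMIs) and 5.83 CPM (32 UMIs) there, and Lef1 at 578 and 720 CPM. Zbtb7b had 0 UMIs in its CKO and 5 UMIs in its WT cells. Some of its cells carried myeloid transcripts: 1 of 34 CKO cells held 84 Lyz2 UMIs, and 3223 S100a8 UMIs lay in 59 of 717 WT cells. Summed genes of γδ T, NK and NKT cells were higher in CKO in the wider gate, at a ratio of 8.01 (5.97 to 10.6). In the narrower gate the interval of that ratio spans 1. In the wider gate the B cell list was lower in CKO, at 0.684 (0.568 to 0.817), and the interval of the myeloid list spans 1. The part of such cells and transcripts in the levels of the wider gate was not tested.

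What distinguishes the gate from naive CD4 cells was read in the WT library, where most cells carry Cd8a. Gate genes were left out, and a gene was called past 1.5-fold. Of 5816 measured genes, 225 (3.87%) were at least 1.5-fold higher in WT naive CD8 than WT naive CD4 gate cells and 262 (4.50%) at least 1.5-fold lower. In the CKO library, with 749 genes measured, these were 22 (2.94%) and 31 (4.14%). The 12 genes most clearly higher in WT were Itgae, Ly6c2, Ccr9, Lcn4, Nedd4, Klrd1, Fam241a, Plac8, Cst7, Actn2, Tm6sf1 and Ehd1, ranked in WT alone after it was seen how few CKO cells hold Cd8a. Itgae, the αE integrin chain that binds E-cadherin, measured 55.4 CPM in naive CD8 and 0.885 CPM in naive CD4 cells of WT. Ccr9, a chemokine receptor for homing to the gut, measured 177 and 7.37 CPM, and Klrd1, the CD94 chain of lectin receptors, 148 and 19.0 CPM.

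Their levels in the CKO gate are a description, since the WT gate cells that chose the 12 genes for high levels are also those compared, and 7 of the 12 had 0 or 1 UMI in CKO. Summed, they measured 264 CPM in CKO and 1041 CPM in WT gate cells. Within CKO they measured 685 CPM in the 4 cells with Cd8a and 147 CPM in the 17 cells without. Within WT they measured 1321 CPM in cells with Cd8a and 327 CPM in cells without, and each of the 12 was lower in cells without Cd8a. WT naive CD4 cells gave 97.8 CPM. In the wider gate, where each cell holds Cd8a, the same sum was 1557 CPM in CKO and 1488 CPM in WT. The sum was thus lower in CKO both among cells with and among cells without Cd8a, but not in the wider gate. Single members of the sum still differed there, on both sides. Ly6c2 stood at 135 CPM in CKO and 412 CPM in WT. Plac8, which is also on the list of myeloid cell genes, made up 500 of the 1557 CPM in CKO and 232 of the 1488 CPM in WT. Ly6c2 and Plac8 thus moved the wider gate sums in opposite directions, and the part of myeloid transcripts in these sums was not tested.

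The 12 genes most clearly lower in naive CD8 than naive CD4 cells of WT were Lyz2, S100a6, Ly6a, Cd40lg, Ptms, Ly6c1, Izumo1r, Igfbp4, Tesc, St8sia6, Pdlim4 and Trappc1. They were likewise chosen on the WT gate cells, for low levels, and 3 of them had 0 or 1 UMI in CKO. Their sum was 906 CPM in CKO and 414 CPM in WT gate cells. CKO cells with Cd8a gave 76.2 CPM and CKO cells without 1135 CPM. WT cells with Cd8a gave 225 CPM, WT cells without gave 897 CPM, and WT naive CD4 cells 1358 CPM. Each of the 12 was higher in WT cells without Cd8a than in those with it. Igfbp4, an insulin-like growth factor binding protein, measured 362 CPM in CKO and 160 CPM in WT gate cells, with 301 CPM in WT cells without Cd8a, 104 CPM in those with it and 412 CPM in WT naive CD4 cells. Tesc, a calcium-binding protein, measured 165 CPM in CKO and 48.9 CPM in WT, and Ly6c1, a surface antigen, 90.6 and 33.4 CPM.

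**Figure D3:**
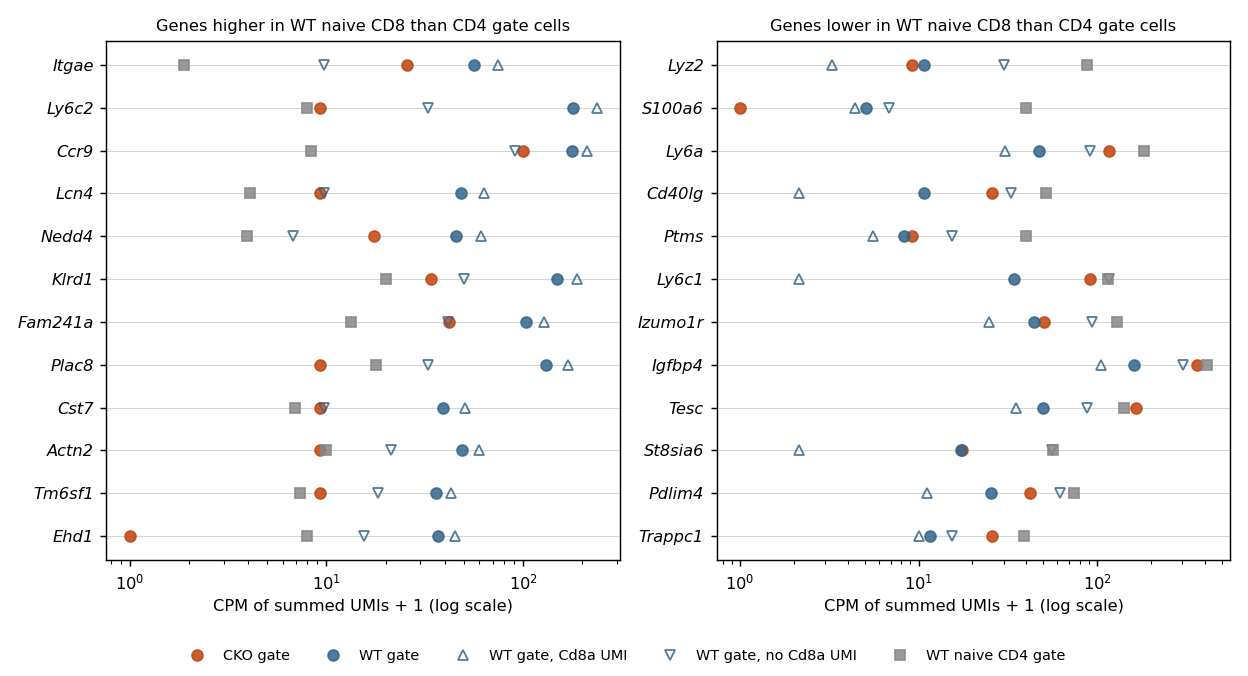
Level (CPM plus 1, log x axis) of the 12 genes most clearly higher (left) and lower (right) in WT naive CD8 than WT naive CD4 gate cells, in the CKO gate, the WT gate, its cells with and without a Cd8a UMI, and WT naive CD4 cells. At left WT cells without Cd8a lie below those with it for each of the 12 genes, which were chosen for high levels in the WT gate.

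Genes measured in both libraries were ranked by the ratio of naive CD8 over naive CD4 gate cells in the library where it was nearer to 1. Dusp2, a phosphatase of MAP kinases, was 1.61 times higher in CKO (1.02 to 2.45) and 1.38 times in WT (1.22 to 1.55). Saraf, an inhibitor of store-operated calcium entry, was 1.80 times higher in CKO (1.29 to 2.45) and 1.29 times in WT (1.15 to 1.45). Dapl1 was 1.64 times higher in CKO (1.06 to 2.44) and 1.27 times in WT (1.16 to 1.39). Nfkbia, Jpt1, Tubb5, H2-Q7, Gas5, Dock10 and Themis completed the 10 genes of the rule. The CKO intervals of Jpt1, H2-Q7, Dock10 and Themis span 1, with lower bounds of 0.893, 0.953, 0.798 and 0.773. None of the 10 was past 1.5-fold in both libraries. Lower in both were Lyz2, Cd74, Gpx1, Vim, Dgka, Il6ra, Slfn1, Cst3, Gnai2 and Chd3. Of these, Vim (0.415 to 1.05), Il6ra (0.446 to 1.19) and Gnai2 (0.597 to 1.02) have CKO intervals that span 1. Dgka, a diacylglycerol kinase that dampens receptor signals, stood at 0.521 times in CKO (0.311 to 0.823) and 0.735 times in WT (0.642 to 0.837). Lyz2, Cd74 and Cst3 are also genes of myeloid cells. Naive CD4 cells of the CKO library held 863 CPM of Lyz2 against 86.3 CPM in WT, and 10 of 239 CKO and 7 of 1020 WT naive CD4 cells held over 1 Lyz2 UMI. Without those cells, naive CD4 cells gave 7.33 CPM of Lyz2 in CKO and 5.06 CPM in WT, 54.3 and 61.2 CPM of Cd74, and 71.1 and 72.4 CPM of Cst3. The gate itself held 8.24 and 9.78 CPM of Lyz2, 57.7 and 70.9 CPM of Cd74, and 90.6 and 66.0 CPM of Cst3, so without those cells, which Lyz2 itself picked, none of the 3 was 1.5-fold lower than in naive CD4 cells in either library.

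Between genotypes, 714 genes were measured in the gate, which asks for a mean of at least 165 CPM (20 expected counts in CKO). Of these 37 (5.18%) were at least 1.5-fold higher in CKO and 15 (2.10%) at least 1.5-fold lower, or 52 (7.28%) in all, and the median ratio was 1.03. Divided by that median, 32 were higher and 26 lower. By rule, the 12 genes with the highest lower bound and the 12 with the lowest upper bound of the ratio interval were named. Of these, 11 and 9 were past 1.5-fold, and since they were picked for their distance from 1 this is no support.

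**Figure D4:**
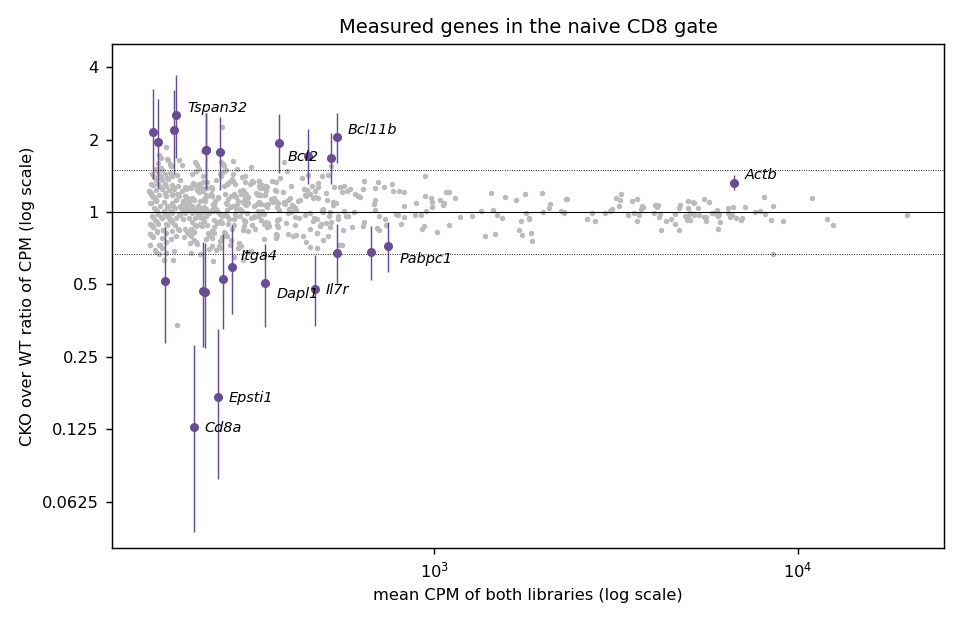
CKO over WT ratio (log y axis) against the mean CPM of both libraries (log x axis) for the measured genes of the gate, with named genes in purple and their exact 95% intervals, and dotted lines at 1.5-fold. Cd8a and Epsti1 lie lowest, at 0.128 and 0.171, and most genes lie between the dotted lines.

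Survival and cytokine genes were among those named. Bcl2, which blocks mitochondrial apoptosis, had 60 UMIs in 18 of 21 CKO cells and 312 UMIs in 116 of 189 WT cells, or 494 and 254 CPM, a ratio of 1.94 (1.45 to 2.57). It was also higher in CKO in 3 other T cell gates: 471 and 232 CPM in the wider gate (2.03, 1.66 to 2.46), 2.03 in memory-like CD8 cells and 363 and 249 CPM in naive CD4 cells (1.46, 1.32 to 1.61). In B cells the ratio was 0.994. In gate cells with Cd8a it measured 267 CPM (7 UMIs) in CKO and 257 CPM in WT, and in those without 557 and 249 CPM. The ratio was 1.04 (0.413 to 2.18) with Cd8a required and 1.15 (0.658 to 1.88) with at least 2 Cd8b1 UMIs, and both intervals span 1. After thinning, 10 of 20 CKO and 63 of 188 WT gate cells held a Bcl2 UMI.

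Il7r, the α chain of the interleukin 7 receptor, had 37 UMIs in 12 of 21 CKO cells and 781 UMIs in 150 of 189 WT cells, or 305 and 637 CPM, a ratio of 0.479 (0.334 to 0.666). The wider gate gave 225 and 516 CPM, a ratio of 0.437 (0.328 to 0.570), and naive CD4 cells 261 and 533 CPM, a ratio of 0.490. In cells with Cd8a Il7r stood at 495 CPM (13 UMIs) in CKO and 701 CPM in WT, a ratio of 0.706 whose interval (0.374 to 1.22) spans 1, and in cells without Cd8a at 252 and 472 CPM. Dapl1 was also lower in CKO, at a ratio of 0.506 (0.333 to 0.739) in the gate, 0.328 (0.243 to 0.434) in the wider gate, 0.332 in memory-like CD8 cells and 0.392 in naive CD4 cells. In gate cells with Cd8a its ratio was 0.303 (0.0822 to 0.781), from 4 UMIs of 1 CKO cell. One CKO cell held 25% of the Dapl1 UMIs and 1 held 21.6% of the Il7r UMIs. In B cells Dapl1 was at 0.202 CPM in CKO and 1.54 CPM in WT. In naive CD4 cells 322 of 6572 measured genes (4.90%) were at least 1.5-fold higher and 135 (2.05%) at least 1.5-fold lower in CKO. Of the 12 lower genes 2, Il7r and Dapl1, were past 1.5-fold the same way there, and of the 12 higher genes 0 were. Cd8a, 1 of the 12 lower genes, could not count, since the naive CD4 gate asks for 0 Cd8a UMIs. Without the naive CD4 cells that hold over 1 Lyz2 UMI, the count of higher genes was 1, since Bcl2 then stood at 1.53 (1.39 to 1.69), against 3.21% higher among all genes measured in those cells. The libraries are the same in each gate, so these ratios are side by side values and no independent check.

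Jak1, the kinase on the interleukin 7 receptor and other cytokine receptors, stood at 437 CPM in CKO and 646 CPM in WT gate cells (0.676, 0.502 to 0.893), but at 0.928 (0.777 to 1.10) in the wider gate.

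Epsti1, an interferon-induced gene on chromosome 14 (GRCm38, 77904239 to 78002657), had 9 UMIs in 9 of 21 CKO cells and 533 UMIs in 143 of 189 WT cells, or 74.1 and 435 CPM. The ratio was 0.171 (0.0776 to 0.326). In CKO, cells with Cd8a gave 114 CPM (3 UMIs), cells without 63.1 CPM and naive CD4 cells 144 CPM. In WT the level moved with Cd8a, at 516 CPM in cells with it, 226 CPM in cells without and 135 CPM in naive CD4 cells. In the wider gate Epsti1 stood at 254 CPM in CKO and 560 CPM in WT, a ratio of 0.454 (0.347 to 0.583), against 1.07 in naive CD4 and 1.04 in B cells.

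Other named genes were higher in the CKO gate but nearer to 1 in the wider gate. Bcl11b, a transcription factor that fixes T cell identity, measured 725 CPM in CKO and 355 CPM in WT (2.04, 1.61 to 2.58), with UMIs in 21 of 21 and 165 of 189 cells. CKO cells without Cd8a gave 830 CPM and CKO cells with it 343 CPM (9 UMIs), WT cells without gave 437 CPM and WT cells with it 322 CPM, and naive CD4 cells 505 CPM in CKO and 543 CPM in WT. In the wider gate it stood at 336 and 342 CPM, a ratio of 0.984. Tspan32, a tetraspanin of blood cells, measured 280 CPM in CKO and 111 CPM in WT (2.53, 1.68 to 3.70), with UMIs in 14 of 21 and 75 of 189 cells. Cells without Cd8a gave 347 CPM in CKO and 217 CPM in WT, cells with it 38.1 CPM (1 UMI) and 69.2 CPM (a ratio of 0.550), and naive CD4 cells 238 and 246 CPM. Its wider ratio was 1.45 (0.934 to 2.15). For both genes WT cells without Cd8a lay between WT cells with it and naive CD4 cells.

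Cytoskeletal and housekeeping genes were also among those named. Actb, β-actin, had the most UMIs, at 7602 CPM in CKO and 5736 CPM in WT (1.33, 1.24 to 1.42), and 1.16 (1.10 to 1.21) in the wider gate. Flna, an actin crosslinker, stood at 231 and 118 CPM (1.95, 1.25 to 2.94). Kmt2a, a histone methyltransferase, stood at 1.71 (1.31 to 2.22) and Ccnd2, cyclin D2, at 1.68 (1.31 to 2.14). Among cells with Cd8a, 4 of them in CKO, 3 of these genes lay on the other side of 1, Actb at 0.835 (0.687 to 1.01), Flna at 0.678 (0.0809 to 2.51) and Ccnd2 at 0.386 (0.104 to 0.996), while Kmt2a stood at 1.84 (1.06 to 2.99). Ndufb4 of respiratory complex I, Sars, the seryl-tRNA synthetase, Resf1, Snhg8 and Tmem234 had ratios between 1.77 and 2.18. Of all 12 higher genes, Bcl2 and Tmem234 alone were past 1.5-fold in the wider gate.

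Of the lower genes, Itga4, the α4 integrin chain, measured 206 CPM in CKO and 349 CPM in WT (0.590, 0.378 to 0.883) but stood on the other side in the wider gate, at 328 and 251 CPM (1.31, 1.03 to 1.64), among gate cells with Cd8a (1.22) and with γδ genes allowed (1.14). Txnip, an inhibitor of thioredoxin, stood at 0.470 (0.276 to 0.753) in the gate and 0.910 in the wider gate. Dnajc15, a mitochondrial cochaperone, stood at 0.528 and 0.677. Tut4, a terminal uridylyltransferase, stood at 0.515 and 1.05, Srrm2, a splicing factor, at 0.681 and 1.05, and Pabpc1, which binds poly(A) tails, at 0.719 and 0.951. Il7r, Dapl1 and Epsti1 were among the lower genes past 1.5-fold in both gates.

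**Figure D5:**
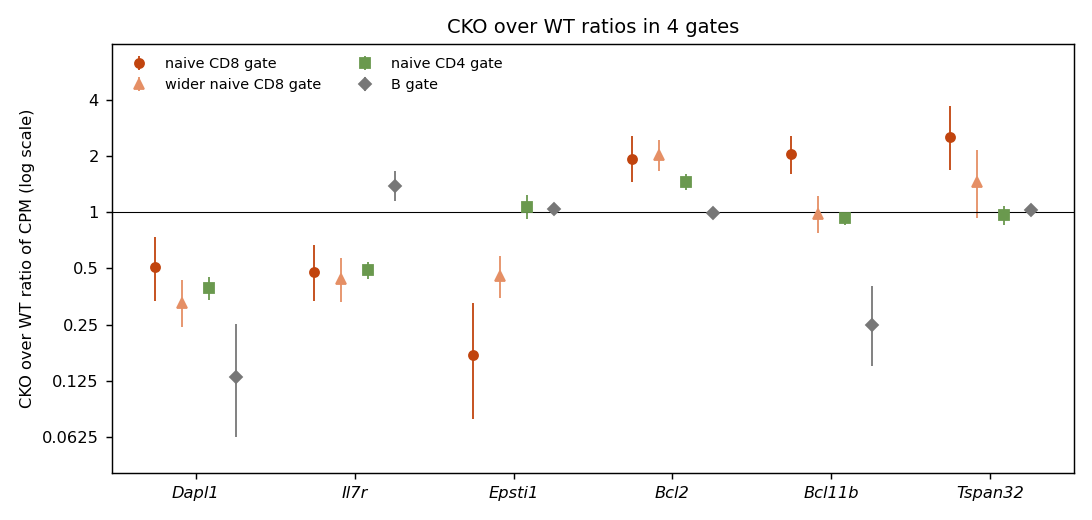
CKO over WT ratio (log y axis) with exact 95% intervals for 6 named genes in the naive CD8 gate, the wider gate, naive CD4 cells and B cells. Dapl1 and Il7r lie below 1 in the 3 T cell gates, Bcl2 lies above 1 in the same 3, and Bcl11b is 2.04 in the naive CD8 gate but 0.984 in the wider gate.

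Rpa1 itself (chromosome 11 of GRCm38, from 75298166 to 75348324 on the minus strand) had 4 UMIs in CKO and 42 UMIs in WT gate cells, or 32.9 and 34.2 CPM, a ratio of 0.962 (0.251 to 2.65). Naive CD4 cells gave 35.8 and 44.7 CPM and B cells 32.6 and 34.6 CPM. Tags from the 3′ end of a transcript can remain when exons elsewhere are removed, so the Rpa1 counts are no check of the knockout. Its partners Rpa2 and Rpa3 had 0 and 2 UMIs among the 121412 UMIs of the CKO gate, and 33 and 42 among the 1226558 UMIs of the WT gate. These CKO counts are too few for a difference between the libraries to be read.

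Gene lists were described by their measured members beside the 5.18% higher and 2.10% lower among all measured genes. Of 26 genes of naive state and quiescence 17 were measured, of which 1 was past 1.5-fold higher (Igfbp4, 2.27, 1.60 to 3.16, against 0.886 in the wider gate) and 3 lower (Il7r, Dapl1 and Klf3, a repressor of lymphocyte genes, at 0.625, 0.391 to 0.952). The median log2 ratio was 0.04, close to the 0.05 of all measured genes. Nearest to 1 were Btg1 at 0.977 and Foxp1, a quiescence factor, at 1.03. Of 13 measured genes of CD8 T cell identity, Bcl11b was higher and Cd8a lower, and the median was 0.04. Of 13 measured genes of proximal T cell receptor signalling 1 was higher, Gimap5, a GTPase of lymphocyte survival, at 1.5 (0.946 to 2.30), and 0 lower, with a median of 0.27. Lat, a scaffold of the receptor signal, stood at 1.38 and Ptprc, the phosphatase CD45, at 0.962.

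The type I interferon list had the lowest median, at -0.78 over 4 measured of 42 members with an entry, with 0 past 1.5-fold higher and 2 lower, Epsti1 among them, and Ifi203 and Ifi209 at 0.885 and 0.727. Summed over all members it measured 2141 CPM in CKO and 3124 CPM in WT, a ratio of 0.685 (0.602 to 0.777), of which Epsti1 made up 13.9% in WT. The sum stood at 0.837 (0.775 to 0.904) in the wider gate and 1.15 (1.11 to 1.18) in naive CD4 cells. In that naive CD4 gate, summed genes of other cells were also higher in CKO. Their ratios were 2.04 for B cells, 10.7 for myeloid cells, 11.8 for γδ T, NK and NKT cells, and 108 for erythroid cells and platelets. The part of such cells in the naive CD4 value was not tested. Genes of the interferon γ response and MHC class I had a median of -0.32 over 11 measured members, with 0 past 1.5-fold higher and 1 lower. B2m, the light chain of MHC class I, stood at 0.801 and H2-K1, a heavy chain, at 0.947.

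Homing and adhesion genes had a median of -0.25 over 7 measured, with 1 lower (Itga4). Homeostatic cytokine signalling had a median of -0.04 over 8, with 1 higher (Bcl2) and 2 lower, Il7r among them. Of the BCL2 family and apoptosis list 3 were measured, Bcl2 at 1.94, Mcl1 at 1.08 and Pdcd4 at 0.975, with a median of 0.11. T cell receptor response genes had a median of 0.30 over 5 with 0 past 1.5-fold, and glycolysis genes 0.45 over 4 with 0 past 1.5-fold, led by Gapdh at 1.42 (1.08 to 1.85). Effector and memory genes had a median of -0.33 over 3, with Itga4 lower. Cell cycle genes had a median of -0.03 over 4, heat shock genes 0.01 over 7, mitochondrially encoded genes -0.13 over 11 and ribosomal proteins -0.03 over 25, with 0 past 1.5-fold in each of these lists.

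Lists with few or no measured members were read as sums. Cytotoxic granule and killer receptor genes measured 362 CPM in CKO and 700 CPM in WT, a ratio of 0.518 (0.374 to 0.702), with Srgn, the granule proteoglycan, making up 47.6% in WT, and 0.741 (0.630 to 0.865) in the wider gate. Genes of recent thymic emigrants measured 1754 and 1409 CPM, a ratio of 1.25 (1.07 to 1.44), with Satb1 making up 40.3% in WT. The ratio was 1.48 (1.34 to 1.62) in the wider gate and 1.41 (1.35 to 1.48) in naive CD4 cells. The part of other cells in that naive CD4 value was not tested either. Of the thymic emigrant list, Sox4 and Drc1 are given after their values were seen. Sox4, a transcription factor of thymocytes, had 12 UMIs in CKO and 23 in WT gate cells (5.27, 2.39 to 11), but 2 and 88 UMIs in the wider gate (0.511, 0.0609 to 1.90). Drc1, a dynein regulator, had 8 and 6 UMIs (13.5, 4.10 to 47.1) in the gate and 6 and 16 UMIs (8.43, 2.70 to 22.7) in the wider gate. The RPA and ATR checkpoint list stood at 0.788 (0.580 to 1.05), DNA replication at 0.915 (0.714 to 1.16), DNA repair at 0.907, with an interval that also spans 1, and p53 targets at 0.832 (0.654 to 1.05), and none of these 4 lists had a measured member. Inhibitory receptors stood at 1.15 (0.903 to 1.44) and cytosolic nucleic acid sensing at 0.967 (0.813 to 1.14). A sum whose interval spans 1 does not show that the libraries are alike.

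In the wider gate 1653 genes were measured, of which 98 (5.93%) were at least 1.5-fold higher and 40 (2.42%) at least 1.5-fold lower in CKO. By the same rule Ccr9 ranked highest, at 348 CPM with UMIs in 29 of 34 CKO cells and 161 CPM with UMIs in 379 of 717 WT cells, a ratio of 2.16 (1.71 to 2.70). In the narrower gate it stood at 98.8 CPM in CKO and 177 CPM in WT (0.559), and in naive CD4 cells at 22.8 and 7.37 CPM (3.09). Bcl2, Cic, a transcriptional repressor, Gimap7, of the same GTPase family as Gimap5, Rnf213, a ubiquitin ligase, Zfp207, Kdm5b, a histone demethylase, and Dtx1, a regulator of Notch signalling, followed with ratios of 1.83 to 2.53. Lower were Dapl1, Ly6c2 (0.328, 0.225 to 0.462), Il7r, Epsti1, Tsc22d3, a glucocorticoid-induced gene (0.335, 0.172 to 0.589), Cd69, which retains T cells in tissue (0.417, 0.242 to 0.671), and Hmgb2, a chromatin protein (0.498, 0.327 to 0.729).

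The receptor V segments of the gate were several in both libraries, although UMIs were few. Tags of β chain V segments were found in 8 of 21 CKO cells and 62 of 189 WT cells. They covered 7 of 35 annotated segments with 8 UMIs in CKO and 17 of 35 with 83 UMIs in WT. The most abundant, Trbv3 in CKO and Trbv2 in WT, had 2 UMIs from 2 cells and 16 UMIs from 10 cells (19.3% of V UMIs). For the α chain, 4 segments with 4 UMIs were found in CKO and 32 segments with 87 UMIs in WT, of 128 annotated. Tags from the 3′ end reach V segments only in part, so these are counts of what was read.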

How the data were processed

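The deposited values are UMI counts per gene and cell barcode in 10x matrices of filtered barcodes, 1 per library, and per the file headers Cell Ranger 6.0.2 made them. Cell Ranger 5.0.0, Seurat 4.0.3 and the mm10 build stand in the submitters' processing notes, and no cell annotation was used. Cells were filtered at 200 to 6000 genes and under 10% mitochondrial UMIs, and gated on raw counts. The members, gene lists and comparisons were chosen with earlier results of these data known, and the gene lists were written for this work.

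Counts were summed over gate cells and divided by their total (CPM, per 1000000 UMIs), with exact Poisson intervals. Shares carry Clopper-Pearson intervals, and ratios of CKO over WT exact conditional binomial intervals, at 95%. A gene was measured where the mean CPM of both libraries gives at least 20 counts in the smaller one, and called at 1.5-fold. Log2 ratios of list members use a pseudocount of 1 CPM. A count of 0 allows up to 3 counts.

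Genes were named by rule: the 12 measured genes with the largest lower bound and the 12 with the smallest upper bound of the ratio, leaving out gate, segment, mitochondrial, ribosomal, sex-linked and unnamed genes, and, judged in the library where the gene is higher, genes of which 1 cell holds over 20% of the UMIs and genes under 2% of the highest level in another gate. Of the genes so named, 1 is not reported here. No set test was run. Doublets were kept, and leaving out those that Scrublet marked (1293 CKO and 1394 WT cells, as the highest scores at the expected rate) was an alternative. The calculation was tested on simulated counts. The tools were scanpy 1.11.5, scipy 1.17.1, numpy 2.4.6, pandas 2.3.3 and matplotlib 3.10.9 under Python 3.11.15.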

Additional observations from a re-analysis of the deposited data

Results flagged for a closer look

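Of the 24 genes that separate WT naive CD8 from WT naive CD4 gate cells, 6 were past 1.5-fold between CKO and WT on opposite sides in the naive CD8 and the naive CD4 gate. The genes named by rule between genotypes were scanned in the same way, and none of those was flagged. The 24 genes that separate the WT gates were chosen on the WT levels of both gates, which are also the WT side of both ratios. Opposite sides are therefore favoured by that choice, and the share over all measured genes was not counted. Genes lacking UMIs in any of these gates could not be flagged. With 1 library per genotype the difference between the gates was not tested. Ly6c2 had a CKO over WT ratio of 0.0461 (0.00116 to 0.260) in naive CD8 and 9.40 (6.58 to 13.6) in naive CD4 gate cells. Plac8 stood at 0.0631 (0.00159 to 0.357) and 11.2 (9.01 to 14.0), and Tm6sf1 at 0.235 (0.00581 to 1.38) and 3.59 (2.23 to 5.75). Each of these 3 genes rests on 1 UMI in the CKO naive CD8 gate. In naive CD4 cells with at most 1 Lyz2 UMI, their ratios were 1.35 (0.627 to 2.69), 1.27 (0.684 to 2.23) and 1.60 (0.785 to 3.05). These 3 ratios still lay above 1, Tm6sf1 past 1.5-fold, and their intervals span 1.

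Nedd4 stood at 0.367 (0.0434 to 1.39) in naive CD8 and 1.55 (0.552 to 3.81) in naive CD4 gate cells, and at 1.04 in naive CD4 cells with at most 1 Lyz2 UMI. Ccr9 stood at 0.559 (0.284 to 0.996) and 3.09 (1.95 to 4.86), and at 3.39 (2.11 to 5.38) without the naive CD4 cells that hold over 1 Lyz2 UMI. In the wider gate, where each cell holds Cd8a, Ccr9 was higher in CKO, as in naive CD4 cells. Pdlim4, a scaffold protein of the actin cytoskeleton, stood at 1.68 (0.510 to 4.38) and 0.623 (0.478 to 0.802), from 5 CKO and 30 WT UMIs in the naive CD8 gate.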

How the results depend on the processing

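The share ratio of the gate stayed below 1 under each alternative. It was 0.0624 with Cd8b1 at least 2 UMIs (9 CKO and 145 WT cells), 0.0312 with Cd8a required (4 and 129), 0.0636 with the gate on thinned counts (32 and 504) and, chosen after seeing the data, 0.0636 with Nkg7 not counted (51 and 806) and 0.0477 in the wider gate (34 and 717). The naive share of CD8 cells turned with the gate, at 16.1% in CKO and 13.7% in WT, 7.69% and 12.8%, 58.2% and 56.4%, 72.9% and 72.2%, and 65.4% and 71.0% in the same order. Genes past 1.5-fold numbered 10 higher and 9 lower, 2 and 3, 104 and 36, 128 and 66, and 98 and 40 in that order, over 279, 136, 1533, 2291 and 1653 measured genes. Named genes past 1.5-fold, 20 in the main gate, were 9 with Cd8a required, 8 on thinned gating, 11 without Nkg7 and 6 in the wider gate. With γδ genes allowed 23 genes were lower. The median ratio as scale gave 26 lower and 32 higher, thinned counts 9 higher and 5 lower, 10 expected counts 148 and 84, 50 expected counts 4 and 1, and no filter 2311 and 5252, which holds genes of a few UMIs.

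Lists with a median past 1.5-fold, 1 in the main gate (type I interferon), were 0 with Cd8b1 at least 2, Cd8a required, the naive limit at 0, thinned counts and 10 expected counts, 2 on thinned gating and in the wider gate, 3 without Nkg7 and 10 with no filter. Rpa1 moved to 2.69 on thinned counts, from few UMIs. Of the named genes, Tspan32 turned to 0.550, Ccnd2 to 0.386, Flna to 0.678 and Itga4 to 1.22 with Cd8a required, where Actb, under 1.5-fold in the main gate, stood at 0.835. Itga4 also turned to 1.14 with γδ genes allowed, 1.31 on thinned gating, 1.08 without Nkg7 and 1.31 in the wider gate, Cd8a to 1.02 without Nkg7, and Bcl11b to 0.984 and Tut4 to 1.05 in the wider gate. Fewer or more cells and genes enter under these gates and filters, and beyond that the cause was not tested. Leaving out marked doublets, other cell filters, totals without mitochondrial, ribosomal and segment UMIs, the mean of per-cell CPM and a pseudocount of 5 CPM moved none of the shares or counts by over 1.5 times.

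No paired analysis was possible because each genotype is 1 library with no replicate numbers. The 121412 UMIs of the CKO gate limit each ratio: below a mean of 165 CPM genes were not ranked or called between genotypes, and values given for such genes rest on few CKO UMIs.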
